A study of Mus musculus with 12 samples.

Results

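Fatty acid uptake and oxidation genes were followed in the left ventricle of mice with and without lincRNA-p21, after pressure overload or sham surgery. The set was a list of 37 gene symbols, from 5 genes of uptake, lipolysis and binding to 2 uncoupling proteins. Each symbol matched 1 of the 56350 gene IDs of the table, and all 37 were among the 13916 genes that passed the filter on low values and were tested. The heart burns fatty acids for most of its energy, and a weaker expression of this pathway is a known feature of the overloaded rodent heart.

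The 4 groups were formed by genotype and surgery, with 3 libraries each. The knockout TAC group held mice with a global knockout of lincRNA-p21, a long noncoding RNA known as a target of p53 and named Trp53cor1 as a gene. These mice had undergone transverse aortic constriction (TAC), in which a tied aorta makes the left ventricle pump against a raised pressure. The knockout sham group held knockouts after a sham operation. The control TAC and control sham groups held littermates heterozygous for the same allele, so the controls carried 1 knockout allele as well. Tissue was the apex of the left ventricle, taken 8 weeks after surgery. For strain, sex, age and the design of the allele, no entry is given in the sources used here. Since the labels do not name the animal behind each library, p-values measure the spread between these libraries, which may be technical.

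In the pathway, lipoprotein lipase frees fatty acids from circulating triglyceride and carriers such as CD36 bring them into the cell. There they are bound, joined to coenzyme A and passed to carnitine by the outer carnitine palmitoyltransferase of mitochondria. Inside the matrix the acyl-CoA runs through repeated rounds of dehydrogenation, hydration, a second dehydrogenation and thiolysis, and auxiliary enzymes rearrange the double bonds of unsaturated chains. Electrons from the acyl-CoA dehydrogenases go to the electron transfer flavoprotein (ETF, made of the subunits Etfa and Etfb) and through Etfdh to ubiquinone.

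Promoters are shown for members whose products form 1 complex or chain: Etfb, which fell in control TAC libraries, its partner subunit Etfa, and Etfdh, which takes their electrons. Acadm, a well-studied target of nuclear receptors, and the gap between the head-to-head genes Hadha and Hadhb follow. The sequences come from RefSeq (GRCm38.p6), in which 31 of the 37 members had an entry in the promoter table, and run 5′ to 3′ on the gene's strand up to the base before the RefSeq start. Capitals mark a motif found by a search of both strands. It is the core of the NRF1 site, GCGC, 2 bases of any kind and GCGC again, in Etfb (chr7:43443822-43444071, plus strand) and in the 30 bases around it from Etfdh (chr3:79628876-79628905, minus strand). In Acadm (chr3:153944644-153944893, minus strand) it is AGGTCA, the motif of a single nuclear receptor, read on the other strand as TGACCT. Etfa (chr9:55512244-55512493, minus strand) and the 85 bases between Hadha and Hadhb (chr5:30155163-30155247, plus strand) held neither. In GENCODE M21, which gave the transcript lengths used here, Etfdh starts further upstream, at base 79629500. The stretch shown for Etfdh thus lies before the RefSeq start but inside the gene as GENCODE annotates it.
Etfb: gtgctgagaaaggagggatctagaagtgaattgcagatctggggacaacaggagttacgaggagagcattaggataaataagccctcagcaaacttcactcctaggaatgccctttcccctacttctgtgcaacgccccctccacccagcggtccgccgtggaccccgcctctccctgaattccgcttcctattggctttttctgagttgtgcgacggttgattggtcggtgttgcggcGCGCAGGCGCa
Etfa: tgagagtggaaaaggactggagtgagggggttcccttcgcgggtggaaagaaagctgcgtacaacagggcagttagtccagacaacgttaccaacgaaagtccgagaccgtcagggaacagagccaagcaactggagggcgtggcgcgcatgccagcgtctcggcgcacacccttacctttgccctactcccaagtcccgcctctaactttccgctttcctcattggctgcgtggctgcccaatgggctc
Etfdh: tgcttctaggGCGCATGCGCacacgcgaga
Acadm: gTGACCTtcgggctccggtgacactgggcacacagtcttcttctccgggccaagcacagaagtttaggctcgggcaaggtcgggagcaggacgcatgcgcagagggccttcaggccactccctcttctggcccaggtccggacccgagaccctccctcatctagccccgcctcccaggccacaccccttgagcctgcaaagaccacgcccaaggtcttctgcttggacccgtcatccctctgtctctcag
Hadha to Hadhb: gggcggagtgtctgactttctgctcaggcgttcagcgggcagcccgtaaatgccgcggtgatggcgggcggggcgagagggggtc
In the 250 bases before the start, AGGTCA was found in 14.0% of 32851 promoters and in those of 6 of 31 members, Acadm, Acadvl, Cd36, Cpt1a, Echs1 and Ucp3. The pair of AGGTCA copies on the same strand with 1 base of any kind between them, each of which also counts as AGGTCA, was found in 0.0335% of promoters and in 0 of 31 members. The NRF1 core was found in 4.98% of promoters and in those of Acad10, Etfb and Etfdh.

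Each library held between 10323605 and 13238934 reads in genes. The values are normalised read counts, the authors' reads per gene over the size factor of the library. A change is a difference of mean log2(value + 1), given ± SE, and it understates the fold of weakly expressed genes. A change passed at an adjusted p under 0.05 (limma-trend, Benjamini-Hochberg over all 13916 genes). Trp53cor1 had 0 reads in the 6 knockout libraries, which allows up to 0.0413 CPM (reads scaled by the library total) over their sum. It had 4, 0 and 3 reads in control TAC libraries and 2, 0 and 2 in control sham libraries, so it was hardly detected in controls either. Among all libraries, control sham replicate 3 lay far out on principal component 2 (score −46.8). It was the lowest of its group for 22 of the 37 members and the highest for 10, so calls that change without it are named. On the same component, knockout TAC replicates 1 and 2 (22.9 and 33.7) lay apart from replicate 3 (−15.6). Mitochondrial genes took 19.1% to 19.99% of reads in knockout TAC libraries, 14.7% to 16.8% in knockout sham libraries, 15.5% to 17.1% in control TAC libraries and 12.5% to 18.7% in control sham libraries, with control sham replicate 3 the lowest, and the part of this in the results was not tested.

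At least 1 gene of every step except uncoupling passed as lower in control hearts after TAC than after sham surgery. Only 1 gene passed in each of activation and thioesterases, acyl-CoA dehydrogenases and electron transfer. After removal of a trend with transcript length and GC content, none was left in uptake or the acyl-CoA dehydrogenases. Both uncoupling genes were below 0 (median −0.77) without passing. Part of the genes that passed as lower was higher in knockout than in control hearts after TAC. In the comparison of TAC with sham surgery in controls, 14 of 37 members fell and 0 rose, while over all genes tested 10.6% fell and 11.0% rose. The median change of the members was −0.39, and 0.01 over all genes. After TAC, 13 of 37 members were higher in knockouts than in controls and 0 were lower, with 4.1% of all genes higher and 4.13% lower. Their median difference was 0.36, and 0.01 over all genes. With voom with quality weights, another limma method, 23 members were higher and 1, Acacb, was lower, with 13.8% of all genes higher. Both comparisons use the same control TAC libraries, so a low value there enters both, and neither is support for the other. In bulk tissue, fewer cells of a type and less RNA per cell cannot be told apart.

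**Figure D1:**
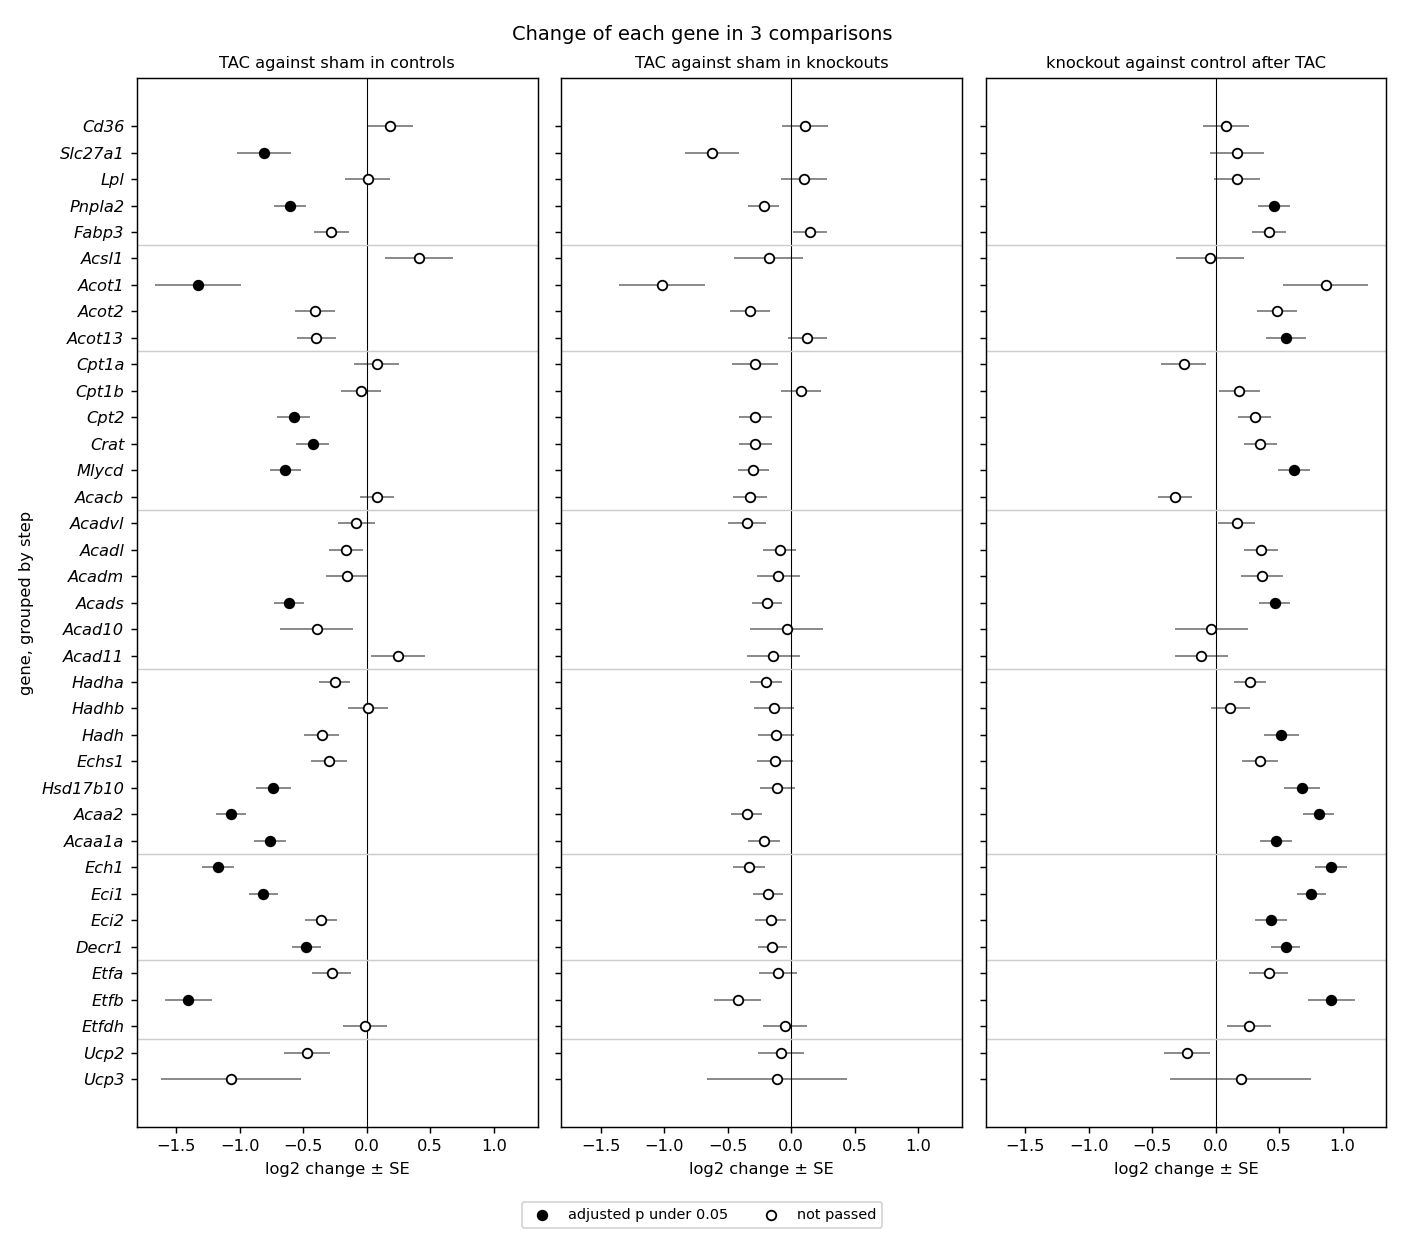
Log2 change ± SE of each of the 37 genes (rows, grouped by step) for TAC against sham surgery in controls, TAC against sham surgery in knockouts, and knockout against control after TAC. Filled points passed an adjusted p of 0.05: 14 lie below 0 in controls, 0 passed in knockouts and 13 lie above 0 for knockout against control after TAC.

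All 3 control TAC libraries lay below all 3 control sham libraries for 17 of 37 members, against 17.7% of all genes. All 3 knockout TAC libraries lay above all 3 control TAC libraries for 25 members, against 15.6% of all genes, and below them for 1 member, Acacb, against 15.5%. Summed over the 37 members, reads made up 2.43% to 2.49% of each knockout TAC library and 2.59% to 2.79% of each knockout sham library. They made up 2.02% to 2.16% of each control TAC library, and 2.61%, 2.75% and 2.30% of the control sham libraries. By share of reads the 3 control TAC libraries were the lowest of the 12. By summed normalised values they were not, since control sham replicate 3 (238621) lay between control TAC replicates 1 (238059) and 3 (242684). Below the lowest control sham library lay 11, 13 and 12 members in knockout TAC replicates 1 to 3, 3, 3 and 5 in knockout sham libraries, and 24, 26 and 19 in control TAC libraries. Over all genes tested, 22.3% to 25.3% lay there in knockout TAC libraries, 17.4% to 18.8% in knockout sham libraries and 30.02% to 32.6% in control TAC libraries.

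**Figure D2:**
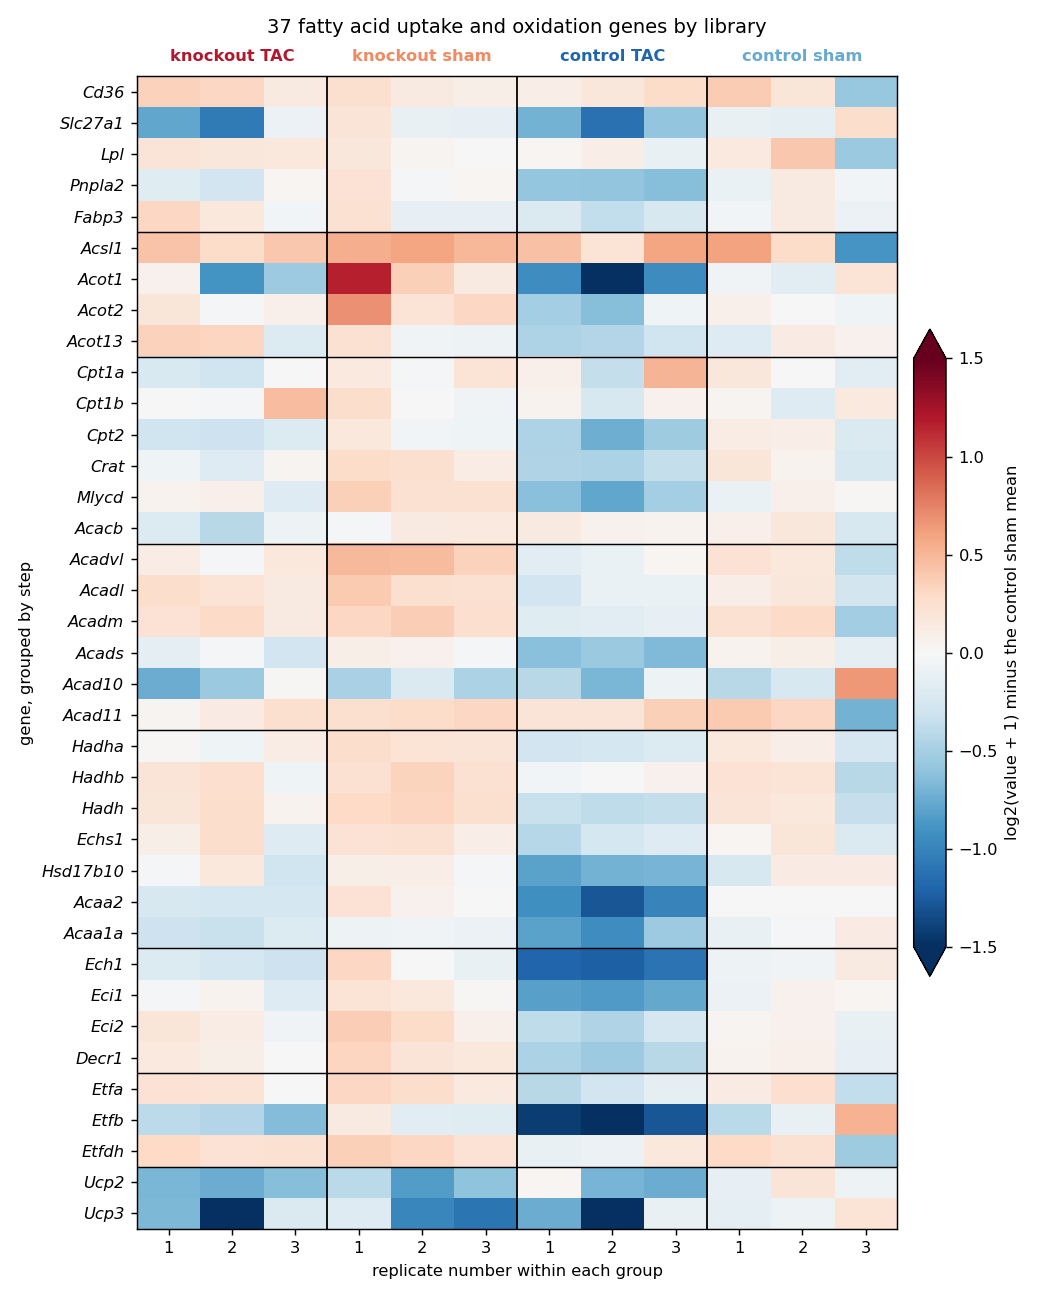
Log2(value + 1) of the 37 genes (rows, grouped by step) in 12 libraries (columns) minus the control sham mean of the gene, red for higher and blue for lower. The 3 control TAC columns are blue for most genes, with 19 to 26 of 37 members below the lowest control sham library, and control sham replicate 3 differs from its group for several genes.

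Of the 5 genes of uptake, lipolysis and binding, 2 fell in control TAC libraries, Slc27a1 and Pnpla2, and 1, Pnpla2, was higher in knockouts after TAC. Over all genes tested, 10.6% fell in the first comparison and 4.1% were higher in the second. Whether this or any later step differs from these shares was not tested. Slc27a1, a fatty acid transport protein of the plasma membrane, had 1433, 1180.1 and 2311 in knockout TAC libraries, 2801, 2281 and 2253 in knockout sham libraries, 1499, 1128 and 1631 in control TAC libraries and 2268, 2216 and 2939 in control sham libraries. The control TAC values were all below the control sham values, and knockout TAC replicate 3 stood well above the other knockout TAC libraries. Its change with TAC was −0.81 ± 0.21, adjusted p = 0.0148 in controls and −0.63 ± 0.21, adjusted p = 0.636 in knockouts. Pnpla2, the adipose triglyceride lipase, which releases fatty acids from stored triglyceride, had 4122, 3824 and 4785 in knockout TAC libraries, 5407, 4605 and 4757 in knockout sham libraries, 3119.9, 3092 and 2994 in control TAC libraries and 4366, 5129.6 and 4546 in control sham libraries. Its control TAC libraries lay below all other libraries, with a change of −0.61 ± 0.12, adjusted p = 0.0038, and the difference of knockout TAC from control TAC was 0.46 ± 0.12, adjusted p = 0.0329. Fabp3, the fatty acid binding protein of heart muscle, had 22065, 19926 and 17289.7 in knockout TAC libraries, 20774, 16388 and 16367 in knockout sham libraries, 15300.1, 13779 and 15019 in control TAC libraries and 17249.7, 19554 and 16727 in control sham libraries. It did not pass in controls (−0.28 ± 0.14, adjusted p = 0.152) or between genotypes after TAC (0.42 ± 0.14, adjusted p = 0.0627), though all knockout TAC values lay above all control TAC values. Cd36, the main fatty acid translocase, and Lpl, lipoprotein lipase, had changes of 0.18 ± 0.18 and 0.01 ± 0.18 with TAC in controls and did not pass. Both were lowest in control sham replicate 3, with 10284 for Cd36 and 47106 for Lpl, below all other libraries. The fall of Slc27a1 was lost without control TAC replicate 2 or without control sham replicate 3 (adjusted p up to 0.0828). The difference of Pnpla2 after TAC was lost without knockout TAC replicate 1, 2 or 3, without knockout sham replicate 2 or 3 or without control TAC replicate 1, 2 or 3 (up to 0.107). When a trend of the values with transcript length and GC content was removed from each library, Slc27a1 (adjusted p = 0.0528) and Pnpla2 (adjusted p = 0.0726 in controls and 0.093 between genotypes) no longer passed.

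Among the 4 genes of activation and thioesterases, Acot1 fell in control TAC libraries and Acot13 was higher in knockouts after TAC. The shares over all genes were 10.6% and 4.1%. Acot1, a cytosolic thioesterase that splits long-chain acyl-CoA and is induced by fatty acids through PPARα, was low, with 100.4, 51.0 and 65.4 in knockout TAC libraries, 218, 123 and 106 in knockout sham libraries, 49.7, 21.6 and 49.4 in control TAC libraries and 92.7, 86.4 and 111 in control sham libraries. Its change with TAC was −1.33 ± 0.34, adjusted p = 0.0121 in controls and −1.02 ± 0.34, adjusted p = 0.631 in knockouts, in which the TAC and sham libraries did not overlap either. Acot13, a small mitochondrial thioesterase, had 5428, 5317 and 3704 in knockout TAC libraries, 4973, 4091 and 4030.1 in knockout sham libraries, 3098, 3149 and 3462 in control TAC libraries and 3733, 4642 and 4454 in control sham libraries. Knockout TAC replicates 1 and 2 were the highest of all libraries and replicate 3 lay nearer to the controls, and the difference after TAC was 0.55 ± 0.15, adjusted p = 0.0364. Acot2, the mitochondrial relative of Acot1, had 619.9, 535 and 577 in knockout TAC libraries, 877, 628 and 679 in knockout sham libraries, 382, 350.2 and 522 in control TAC libraries and 573, 544 and 521 in control sham libraries. Its knockout TAC values lay above all control TAC values, with a difference of 0.48 ± 0.16, adjusted p = 0.0688. Acsl1, the main acyl-CoA synthetase of the heart, had a change of 0.41 ± 0.27, adjusted p = 0.295 with TAC in controls, with 10285, 8755 and 11437 in control TAC libraries and 11525, 9225 and 4116 in control sham libraries, of which replicate 3 was the lowest of the 12. Without that library the change of Acsl1 was −0.03 ± 0.12, adjusted p = 0.889, while without control sham replicate 1 it passed as a rise (0.71 ± 0.24, adjusted p = 0.0419). The fall of Acot1 was lost without control TAC replicate 2 (adjusted p = 0.061) and with voom. The difference of Acot13 was lost without knockout TAC replicate 1 or 2, without knockout sham replicate 2 or 3 or without control TAC replicate 1, 2 or 3 (up to 0.176) or after removal of the length and GC trend (0.12). Of the 50-base words of Acot1 and Acot2, 19.0% and 27.7% occur in other genes, mainly in each other, so reads may be split between them.

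The carnitine shuttle and its malonyl-CoA control gave 3 of 6 genes that fell in control TAC libraries, Cpt2, Crat and Mlycd, of which Mlycd was higher in knockouts after TAC. Of all genes, 10.6% fell and 4.1% were higher. Mlycd, malonyl-CoA decarboxylase, which removes the inhibitor of the outer carnitine palmitoyltransferase, had 1516, 1534 and 1274 in knockout TAC libraries, 1875, 1709 and 1717 in knockout sham libraries, 947, 847 and 1021 in control TAC libraries and 1366, 1535 and 1483 in control sham libraries. Every control TAC library lay below every other library. The change was −0.64 ± 0.12, adjusted p = 0.00249 with TAC in controls, and the difference between genotypes after TAC was 0.62 ± 0.12, adjusted p = 0.00892. Cpt2, the inner carnitine palmitoyltransferase, which returns the acyl group to coenzyme A in the matrix, had 2956, 2922 and 3151 in knockout TAC libraries, 4031, 3512 and 3468 in knockout sham libraries, 2634, 2176 and 2503 in control TAC libraries and 3901, 3894 and 3128 in control sham libraries. It was lower in all control TAC libraries than in all control sham libraries (−0.58 ± 0.13, adjusted p = 0.00627), and the knockout TAC libraries lay below the knockout sham libraries too (−0.28 ± 0.13, adjusted p = 0.735). Crat, carnitine acetyltransferase, which buffers acetyl-CoA, had 8421, 7733 and 9096 in knockout TAC libraries, 10682, 10446 and 9528 in knockout sham libraries, 6466, 6368 and 6902 in control TAC libraries and 10011, 9172 and 7498 in control sham libraries. Its fall in control TAC libraries was −0.43 ± 0.13, adjusted p = 0.0276. Acacb, the mitochondrial acetyl-CoA carboxylase that makes malonyl-CoA, had 4379, 3792 and 4794 in knockout TAC libraries, 4999, 5553 and 5593 in knockout sham libraries, 5552, 5301 and 5238 in control TAC libraries and 5341, 5693 and 4277 in control sham libraries. Its knockout TAC values were below all control TAC values, the opposite order to most members, with a difference of −0.32 ± 0.13, adjusted p = 0.147 that did not pass. Cpt1a, the liver type of the outer enzyme, had changes of 0.08 ± 0.18 in controls and −0.28 ± 0.18 in knockouts, neither passing. Cpt1b, the muscle type, is listed at 352 to 575. However, 93.0% of its 50-base words also lie in Gm44502, a gene annotated over it on the same strand and listed at 0 in every library, so its values need not give its whole level. The call of Crat was lost without control TAC replicate 1 or 2 or without control sham replicate 1 or 2 (adjusted p up to 0.0915), with the fit of only the libraries compared, and after removal of the length and GC trend (0.0683). That removal also ended the call of Mlycd in controls (0.124). The difference of Mlycd after TAC was lost without knockout TAC replicate 1 or 2 or without control TAC replicate 2 (up to 0.0574).

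Of the 6 acyl-CoA dehydrogenases 1, Acads, fell in control TAC libraries and was higher in knockouts after TAC. With 10.6% of all genes lower and 4.1% higher in these comparisons, 1 of 6 is not read as a result about the step. Acads, the enzyme for short chains, had 3009, 3278 and 2707 in knockout TAC libraries, 3521, 3459 and 3270.2 in knockout sham libraries, 2149, 2259.9 and 2090.2 in control TAC libraries and 3423, 3528 and 3012 in control sham libraries. No control TAC value reached any other library's value, with a change of −0.61 ± 0.12, adjusted p = 0.00266 in controls and a difference of 0.46 ± 0.12, adjusted p = 0.0261 between genotypes after TAC. Acadm, the medium-chain enzyme, had 13309.9, 13978 and 12578 in knockout TAC libraries, 14223, 14868 and 13644 in knockout sham libraries, 10169, 10187 and 10592 in control TAC libraries and 13461, 14056 and 8015 in control sham libraries. Control sham replicate 3 was the lowest of the 12 libraries, so the control groups overlapped and the change did not pass (−0.16 ± 0.17, adjusted p = 0.541). Without that library, Acadm and the long-chain enzyme Acadl both fell (adjusted p = 0.00456 for Acadm and 0.0402 for Acadl). Acadl had 14919, 14356 and 13642 in knockout TAC libraries, 16396, 14712 and 14649.5 in knockout sham libraries, 10226, 11654 and 11610.0 in control TAC libraries and 13328, 14081 and 10329 in control sham libraries, with all knockout TAC values above all control TAC values (0.36 ± 0.13, adjusted p = 0.0991). Acadvl, the membrane-bound enzyme for very long chains, had changes of −0.08 ± 0.15 with TAC in controls and −0.35 ± 0.15 in knockouts, neither passing. Acad10 and Acad11, less studied members of the family, had changes of −0.39 ± 0.29 and 0.25 ± 0.21 in controls. Acad10 was low, with 46.3 to 124. Both calls of Acads were lost after removal of the length and GC trend (adjusted p = 0.326 in controls and 0.269 between genotypes). Its difference after TAC was lost without knockout TAC replicate 1 or 2 or without control TAC replicate 1, 2 or 3 (up to 0.141).

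In the later steps of the spiral, 3 of 7 genes fell in control TAC libraries, Hsd17b10, Acaa2 and Acaa1a, and these with Hadh were higher in knockouts after TAC. The shares over all genes were 10.6% lower and 4.1% higher. Acaa2, the mitochondrial thiolase that cuts off acetyl-CoA, had 14384, 14181 and 14198 in knockout TAC libraries, 19778, 17797 and 17004 in knockout sham libraries, 8989.9, 7007 and 8477 in control TAC libraries and 16968, 16942 and 17146 in control sham libraries. The 4 groups did not overlap one another apart from the sham groups, and the control TAC libraries were far the lowest. The change with TAC was −1.07 ± 0.12, adjusted p = 5.6e-05 in controls, and the difference between genotypes after TAC was 0.81 ± 0.12, adjusted p = 0.00163. Hsd17b10, a hydroxyacyl-CoA dehydrogenase that also serves in branched-chain amino acid breakdown and mitochondrial tRNA processing, had 1939.9, 2206 and 1613 in knockout TAC libraries, 2109.9, 2119 and 1936 in knockout sham libraries, 1130.1, 1214 and 1223 in control TAC libraries and 1676, 2148 and 2154 in control sham libraries. Its control TAC values lay below all others, with a change of −0.74 ± 0.14, adjusted p = 0.00222 and a difference after TAC of 0.68 ± 0.14, adjusted p = 0.00978. Acaa1a, the peroxisomal thiolase, had 743, 731 and 804 in knockout TAC libraries, 880.0, 890.4 and 870.3 in knockout sham libraries, 529, 483 and 633 in control TAC libraries and 857, 915 and 1007 in control sham libraries. It again had its lowest 3 values in control TAC libraries (−0.76 ± 0.13, adjusted p = 9.9e-04), and the difference after TAC was 0.48 ± 0.13, adjusted p = 0.0291. Hadh, the dehydrogenase for medium and short hydroxyacyl-CoA, had 9006, 9588 and 8237 in knockout TAC libraries, 9770.2, 9949.6 and 9395 in knockout sham libraries, 6347, 6132 and 6209 in control TAC libraries and 9096, 8902 and 6254 in control sham libraries. Control sham replicate 3 lay among the control TAC values, so the fall in controls did not pass (−0.36 ± 0.14, adjusted p = 0.0781), whereas knockout TAC libraries were all above control TAC libraries (0.52 ± 0.14, adjusted p = 0.0316). Echs1, the short-chain enoyl-CoA hydratase, had changes of −0.30 ± 0.14, adjusted p = 0.143 in controls and 0.35 ± 0.14, adjusted p = 0.128 between genotypes after TAC. Hadha and Hadhb, the subunits of the trifunctional protein that carries out these steps for long chains, changed by −0.25 ± 0.13 and 0.01 ± 0.16 with TAC in controls and did not pass. The call of Acaa2 held in all 12 fits that left out a library, in both comparisons. The difference after TAC was lost for Hsd17b10 without knockout TAC replicate 1 or 2 (adjusted p up to 0.0685). It was lost for Acaa1a without knockout TAC replicate 1 or 2 or without control TAC replicate 1 or 2 (up to 0.137) or with no filter on low values, and for Hadh without knockout TAC replicate 1 or 2, without knockout sham replicate 2 or 3 or without control TAC replicate 1, 2 or 3 (up to 0.147).

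**Figure D3:**
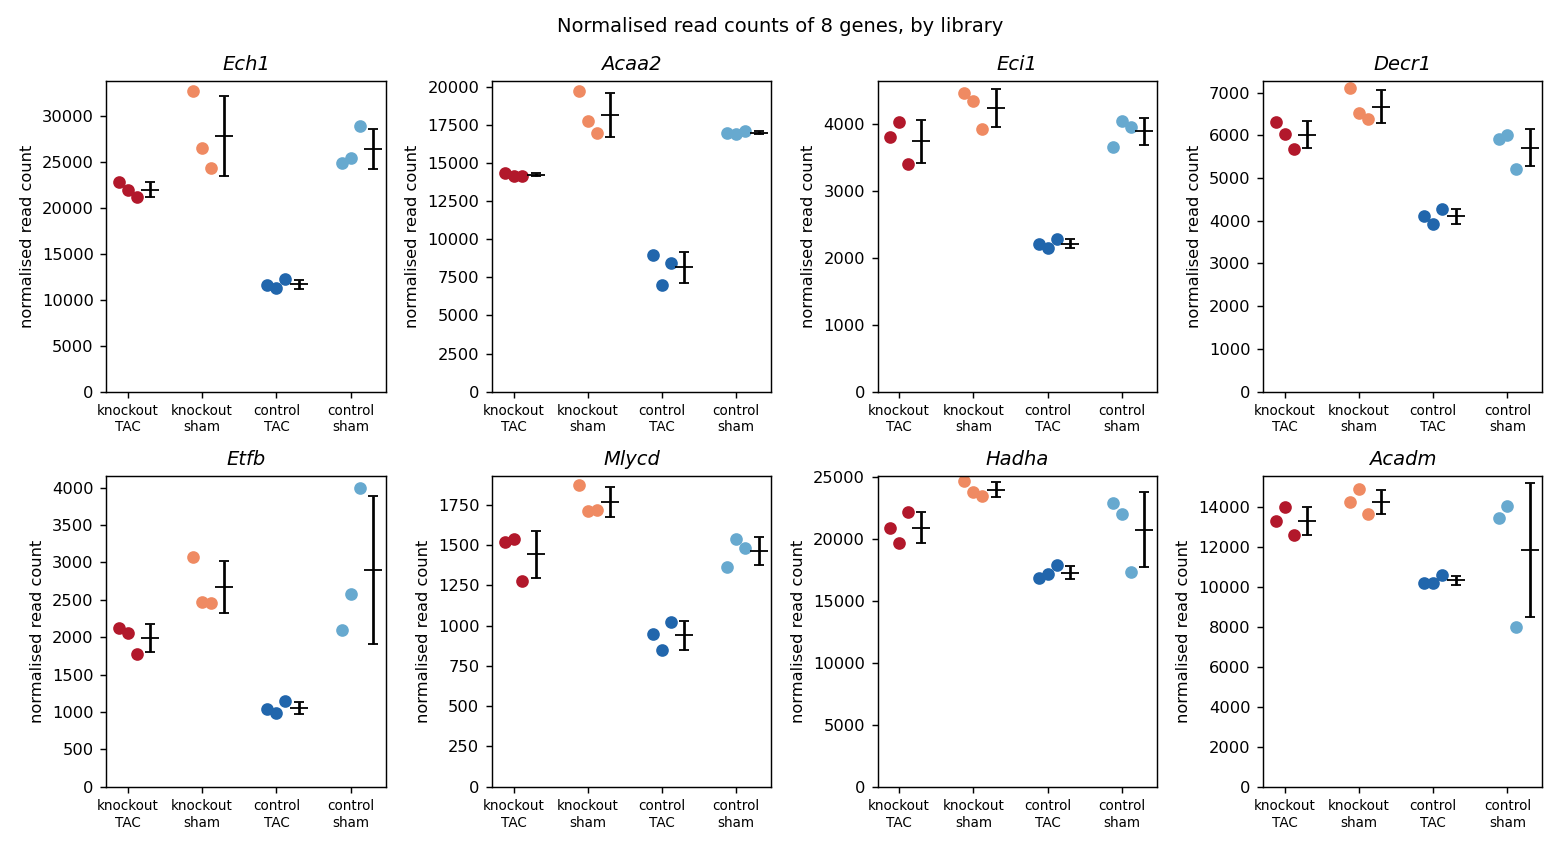
Normalised read counts of 8 genes in each library (points, 3 per group, replicates 1 to 3 from left to right) with mean ± SD beside them. The 3 control TAC points lie below all other points for Ech1, Acaa2, Eci1, Decr1, Etfb and Mlycd, while for Hadha and Acadm 1 control sham point, replicate 3, lies low as well.

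Of the auxiliary enzymes of unsaturated fatty acids, 3 of 4 fell in control TAC libraries and 4 of 4 were higher in knockouts after TAC, beside 10.6% and 4.1% of all genes. Ech1, a dienoyl-CoA isomerase, had 22757, 21908 and 21133 in knockout TAC libraries, 32674, 26465 and 24283 in knockout sham libraries, 11532, 11277 and 12212 in control TAC libraries and 24852, 25375 and 28842 in control sham libraries. The control TAC libraries had less than any other library, and the knockout TAC libraries lay just below the sham libraries of both genotypes. It changed by −1.17 ± 0.13, adjusted p = 4.3e-05 with TAC in controls, and the difference between genotypes after TAC was 0.91 ± 0.13, adjusted p = 0.00105. Eci1, the mitochondrial enoyl-CoA isomerase, had 3801, 4026 and 3398 in knockout TAC libraries, 4464, 4339 and 3927 in knockout sham libraries, 2210.4, 2148 and 2279 in control TAC libraries and 3658, 4050.2 and 3960.3 in control sham libraries. Its control TAC values were again the lowest of all, with a change of −0.81 ± 0.12, adjusted p = 4.3e-04 and a difference after TAC of 0.75 ± 0.12, adjusted p = 0.00205. Decr1, mitochondrial dienoyl-CoA reductase, had 6315, 6043 and 5685 in knockout TAC libraries, 7113, 6525 and 6377 in knockout sham libraries, 4107, 3918 and 4284 in control TAC libraries and 5919.7, 6009.7 and 5218 in control sham libraries. It too had its lowest values in the control TAC libraries, with −0.48 ± 0.12, adjusted p = 0.00912 in controls and 0.55 ± 0.12, adjusted p = 0.0108 between genotypes after TAC. Eci2, a second isomerase found in peroxisomes and mitochondria, had 1665, 1586 and 1416 in knockout TAC libraries, 1900.3, 1783 and 1546 in knockout sham libraries, 1132, 1076 and 1238 in control TAC libraries and 1517, 1539 and 1360.0 in control sham libraries. Its change in controls lay at the threshold (−0.36 ± 0.12, adjusted p = 0.0501), and its difference after TAC was 0.44 ± 0.12, adjusted p = 0.0405. The calls of Ech1 and Eci1 held in all 12 fits that left out a library, in both comparisons. The difference after TAC was lost for Decr1 without knockout TAC replicate 1 or 2 or without control TAC replicate 2 (adjusted p up to 0.0666). That of Eci2 was lost without knockout TAC replicate 1 or 2, without knockout sham replicate 1, 2 or 3 or without control TAC replicate 1 or 2 (up to 0.17) or with no filter on low values. The fall of Decr1 in controls was lost with the fit of only the libraries compared.

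Of the 3 electron transfer genes 1, Etfb, fell in control TAC libraries and was higher in knockouts after TAC, beside 10.6% and 4.1% of all genes. Etfb had 2127, 2061 and 1779 in knockout TAC libraries, 3070.2, 2473 and 2462 in knockout sham libraries, 1036, 989 and 1141 in control TAC libraries and 2101, 2578 and 4001 in control sham libraries. Control sham replicate 3 had the highest value of all and the control TAC libraries the 3 lowest. The change with TAC was −1.40 ± 0.19, adjusted p = 2.2e-04 in controls, and the difference between genotypes after TAC was 0.91 ± 0.19, adjusted p = 0.00942. Etfa had 7001, 6958 and 6088 in knockout TAC libraries, 7505, 7276 and 6715 in knockout sham libraries, 4546, 4956 and 5524 in control TAC libraries and 6578, 7186 and 4680.1 in control sham libraries, with changes of −0.28 ± 0.15, adjusted p = 0.201 and 0.42 ± 0.15, adjusted p = 0.0941 in the same comparisons. Etfdh, which passes the electrons on to ubiquinone, had 9506, 9036 and 9083 in knockout TAC libraries, 9969.6, 9631 and 8984 in knockout sham libraries, 7159, 7326 and 8620.1 in control TAC libraries and 9532, 9102 and 5377 in control sham libraries, and neither comparison passed (−0.02 ± 0.17, adjusted p = 0.961 in controls and 0.26 ± 0.17, adjusted p = 0.369 after TAC). Within a library, the ratio of Etfb to Etfa was 0.304, 0.296 and 0.292 in knockout TAC libraries, 0.409, 0.340 and 0.367 in knockout sham libraries, 0.228, 0.200 and 0.207 in control TAC libraries and 0.319, 0.359 and 0.855 in control sham libraries. This ratio does not depend on the size factors, but the trend with transcript length and GC content was not removed from it. GC content of the longest transcript is 57.1% for Etfb and 45.0% for Etfa. It is 39.1% for Hadhb and 51.3% for Hadha, whose ratio follows below. The part of GC content in these ratios was not tested. Control TAC libraries did not overlap with control sham libraries, nor with knockout TAC libraries, and knockout TAC libraries did not overlap with knockout sham libraries. Each of these gave p = 0.1 in a two-sided exact permutation test (adjusted p = 0.2 over 12 tests), the smallest p that 3 against 3 libraries can reach. The ratio is of read counts that are not set per length. In addition, 67.3% of the 50-base words of Etfb also lie in Gm45233, a gene annotated over it on the same strand and listed at 0 in every library, so the values of Etfb need not give its whole level. Without control sham replicate 3 the change of Etfb with TAC in controls was −1.14, adjusted p = 6.4e-05. The difference of Etfb after TAC was lost without knockout TAC replicate 1 or 2 (adjusted p up to 0.0558).

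**Figure D4:**
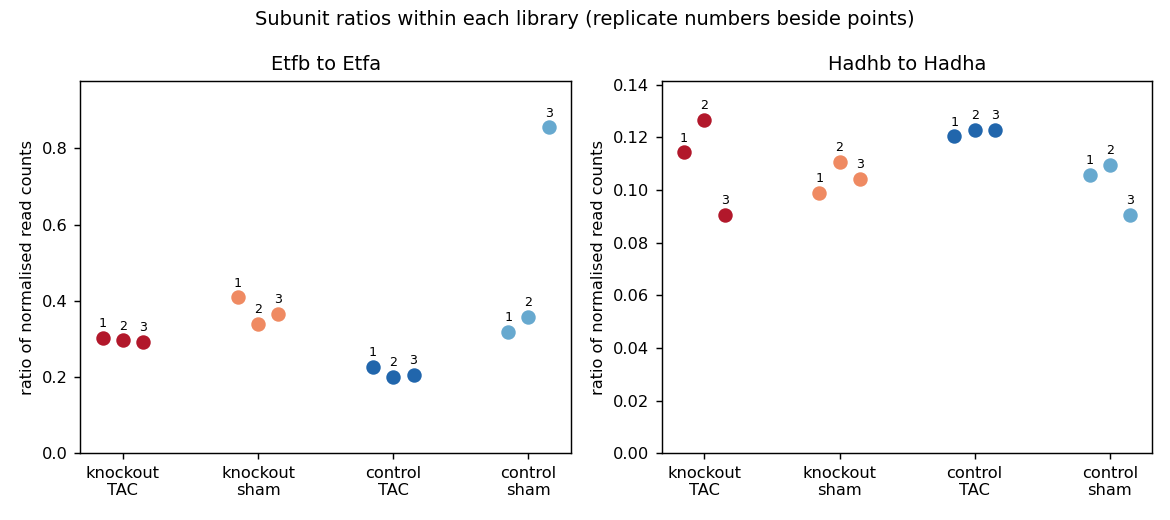
Ratio of normalised read counts of Etfb to Etfa (left) and of Hadhb to Hadha (right) within each library, with the replicate number beside each point. The ratio of Etfb to Etfa was lowest in the 3 control TAC libraries (0.228, 0.200 and 0.207) and highest in control sham replicate 3.

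The same ratio was taken for the subunits of the trifunctional protein. The ratio of Hadhb to Hadha was 0.114, 0.127 and 0.0904 in knockout TAC libraries, 0.0989, 0.111 and 0.104 in knockout sham libraries, 0.120, 0.123 and 0.123 in control TAC libraries and 0.106, 0.109 and 0.0905 in control sham libraries. Control TAC libraries were above control sham libraries, by 0.26 on the log2 scale (exact permutation p = 0.1, adjusted p = 0.2), and the other 3 comparisons overlapped. For Cpt1a to Cpt1b, knockout TAC libraries lay below knockout sham libraries (log2 difference −0.36) and below control TAC libraries (log2 difference −0.44), each with an exact permutation p = 0.1, adjusted p = 0.2, and with the limit on Cpt1b given above.

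Neither uncoupling protein passed in any comparison with all libraries. With TAC in controls, Ucp2 passed as lower without control TAC replicate 1 (−0.72 ± 0.16, adjusted p = 0.00926) and Ucp3 without control TAC replicate 3 (−1.55 ± 0.47, adjusted p = 0.0415). Ucp3, the muscle uncoupling protein, which is induced by fatty acids, had 361, 174 and 496 in knockout TAC libraries, 506, 291 and 269 in knockout sham libraries, 344, 112 and 534 in control TAC libraries and 526, 546 and 667 in control sham libraries. The highest library was 2.85 times the lowest in knockout TAC libraries and 4.76 times in control TAC libraries. Its change was −1.07 ± 0.55, adjusted p = 0.199 in controls. Ucp2, a widely expressed relative, had 535, 512 and 552 in knockout TAC libraries, 652, 483 and 568 in knockout sham libraries, 881, 532 and 513 in control TAC libraries and 793, 989 and 816 in control sham libraries. The knockout sham values lay below the control sham values, with a difference of −0.61 ± 0.18, adjusted p = 0.934 that did not pass.

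In knockouts, TAC gave no member that passed. limma-trend called 0 of 37 members in either direction, with 0.00719% of all genes called, and 10 members had an unadjusted p under 0.05, with 6.68% of all genes. edgeR and DESeq2 also called 0 members, and voom with quality weights called 6, with 3.03% of all genes lower: Slc27a1, Cpt2, Crat, Acacb, Acadvl and Acaa2. The median change of the members was −0.16, with 32 of 37 below 0, beside −0.39 with 30 of 37 below 0 in controls. For 15 members all knockout TAC libraries lay below all knockout sham libraries, against 8.87% of all genes, among them Acot1 (−1.02 ± 0.34), Etfb (−0.42 ± 0.19), Acaa2 (−0.35 ± 0.12) and Ech1 (−0.33 ± 0.13). Whether the TAC effect differed between genotypes was tested as the difference of the TAC effects, in which limma-trend called 0 of 37 members, with 0.309% of all genes called and 11 members at an unadjusted p under 0.05, with 16.5% of all genes. The smallest adjusted p-values belonged to Ech1 (0.84 ± 0.18, adjusted p = 0.0586), Acaa2 (0.72 ± 0.17, adjusted p = 0.0761), Eci1 (0.63 ± 0.17, adjusted p = 0.0963) and Etfb (0.98 ± 0.26, adjusted p = 0.1). edgeR called 0 members, DESeq2 called 6 (Acaa1a, Acaa2, Ech1, Eci1, Etfb and Hsd17b10), with 1.47% of all genes above 0, and voom called 11, with 5.33%. A difference between the genotypes in the response of these genes to TAC therefore did not pass in the test used here and depended on the tool.

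After sham surgery, 0 of 37 members differed between knockouts and controls by limma-trend, with 0.0% of all genes called. Unadjusted p-values under 0.05 were found for 5 members, with 4.34% of all genes, and edgeR, DESeq2 and voom each called 0 members. The median difference was 0.12. All knockout sham libraries lay above all control sham libraries for 9 members, against 4.94% of all genes, and below them for Ucp2 and Ucp3, against 4.68%. Acadvl (0.43 ± 0.15, adjusted p = 0.934) and Acot2 (0.40 ± 0.16, adjusted p = 0.934) had the smallest unadjusted p-values among members with a higher knockout mean.

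Levels within the pathway differed widely. Per kilobase of exon, control sham libraries averaged 21681 normalised reads for Fabp3, 11539 for Ech1, 11226 for Acaa2 and 6849.9 for Lpl, the 4 highest, and 80.5 for Cpt1a, 24.7 for Acot1 and 13.7 for Acad10, the lowest. The length is the union of annotated exons, so genes with many isoforms read lower than by their main transcript. Pearson's r over the 12 libraries of a member with the mean standardised profile of all 37 was highest for Crat (0.96) and Decr1 (0.96). It was lowest for Acad10 (−0.09), Ucp2 (0.02) and Acacb (0.04). Outside the members and the lists described here, the 5 genes with the most similar profile over the 12 libraries were Dglucy (r = 0.984), Ephx2 (0.984), Fam174b (0.982), Sod2 (0.976) and Hfe2 (0.964). These are descriptions, since the libraries share groups and the profile holds the group differences.

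Changes followed transcript length, in the members as in all genes. With TAC in controls, shorter transcripts had lower changes: Spearman's rho between change and length of the longest transcript was 0.514 over the 37 members and 0.409 over 13906 genes. The 14 members that fell had a median longest transcript of 2492.5 bases and the other 23 one of 3463. For knockout against control after TAC the order was reversed, with rho −0.696 over the members and −0.473 over all genes, and the 13 members that were higher had a median of 2023 bases against 3431 for the others. With TAC in knockouts rho was 0.0287 over the members and −0.0127 over all genes. With GC content, rho over all genes was −0.437 for TAC in controls, 0.164 for knockout against control after TAC and −0.355 for TAC in knockouts. When the trend with length and GC content was removed from each library, 11 members fell in control TAC libraries, with 6.24% of all genes, and 10 were higher in knockouts after TAC, with 2.52% of all genes. The 11 include Echs1 and Eci2, which did not pass before, while Acads, Crat, Mlycd, Pnpla2 and Slc27a1 were lost. After TAC, Acads, Acot13 and Pnpla2 were lost. The fall of Acaa2 then was −0.82, of Ech1 −0.85, of Eci1 −0.50 and of Etfb −0.97, each still passing. Part of any biology that goes with length is removed as well, and the part of the trend in the results was not tested further.

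**Figure D5:**
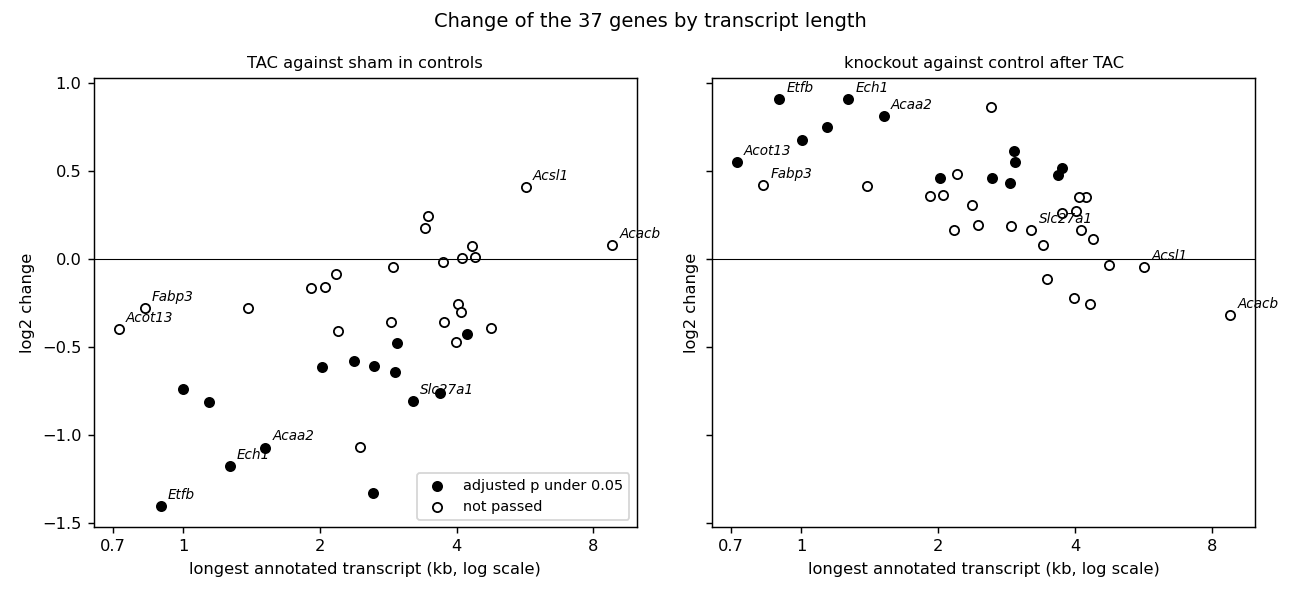
Log2 change of the 37 genes (vertical) by the length of the longest annotated transcript (horizontal, kb, log scale) for TAC against sham surgery in controls and for knockout against control after TAC, filled where the adjusted p is under 0.05. Etfb, Ech1 and Acaa2, all short, lie near the bottom of the left panel and near the top of the right panel, as does Acot1.

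Other genes of fatty acid and related metabolism were counted in 7 lists. Over all genes tested, 10.6% fell and 11.0% rose with TAC in controls, and whether a list differs from these shares was not tested. Of 11 further genes of uptake, binding and carnitine import, 4 fell and 2 rose with TAC in controls. Dbi, the acyl-CoA binding protein, fell (−0.78 ± 0.14, adjusted p = 0.00189), as did Gpihbp1, the endothelial anchor of lipoprotein lipase (−0.74 ± 0.20, adjusted p = 0.0156), and Fabp4, the binding protein of adipocytes and endothelium (−0.58 ± 0.17, adjusted p = 0.0247). Lrp1, a receptor that takes up lipoprotein remnants, rose (0.88 ± 0.16, adjusted p = 0.00178). Of 13 further synthetases and thioesterases 2 fell, the thioesterase Acot7 (−0.77 ± 0.12, adjusted p = 8.6e-04) and the synthetase Acsf3 (−0.68 ± 0.13, adjusted p = 0.00276), and 0 rose. Of 15 genes of branched-chain and other acyl-CoA breakdown 4 fell and 0 rose, Mccc2, Gcdh, Mcee and Auh, by 0.45 to 0.54 on the log2 scale. Among 13 peroxisomal genes Decr2, the dienoyl-CoA reductase of peroxisomes, did not pass (0.45 ± 0.18, adjusted p = 0.093), and the median change of the list was 0.13. Among 7 ketone body genes 1 fell and 1, Bdh1, which oxidises hydroxybutyrate, rose (0.96 ± 0.22, adjusted p = 0.00867). Of 14 genes of triglyceride storage 6 fell and 1 rose. The droplet protein Plin5 (−0.74 ± 0.13, adjusted p = 0.00152), G0s2, an inhibitor of the lipase encoded by Pnpla2 (−0.85 ± 0.16, adjusted p = 0.00247), and the hormone-sensitive lipase Lipe (−0.73 ± 0.18, adjusted p = 0.00966) fell, and Gpam, which starts glycerolipid synthesis, rose (0.82 ± 0.19, adjusted p = 0.00758). Of 12 fatty acid synthesis genes, the mitochondrial Mcat (−0.50 ± 0.14, adjusted p = 0.0178) and Elovl1 (−0.47 ± 0.16, adjusted p = 0.0433) fell and 0 rose. Among the genes named from these lists, the calls that ended when a single library was left out were those of Gpihbp1, Fabp4, Mcee, Auh, Lipe, Mcat and Elovl1, the last in 10 of 12 fits (adjusted p up to 0.166). Fabp4 and Gpihbp1 each lost it in 4 fits, 1 of them the fit without control sham replicate 3. Removal of the length and GC trend ended the calls of Gpihbp1, Acsf3, Gcdh, Mcee, Plin5, G0s2, Gpam, Mcat and Elovl1 (adjusted p from 0.0687 for Gpam to 0.635 for Mcat).

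Some marker lists of cell types moved with these results. Over all genes tested, 10.6% fell and 11.0% rose with TAC in controls. After TAC, 4.1% were higher and 4.13% lower in knockouts, and whether a list differs from these shares was not tested. Of 12 cardiomyocyte markers 6 fell and 1, Ryr2, rose with TAC in controls, and 6 were higher and 1 lower in knockouts after TAC. Their median change was −0.38 with TAC in controls, and their median difference between genotypes after TAC was 0.47. The 37 members had medians of −0.39 and 0.36. Summed normalised values of the cardiomyocyte markers were 1122954 to 1211729 in knockout TAC libraries, 1175769 to 1264473 in knockout sham libraries, 854915 to 940131 in control TAC libraries and 1077049 to 1119299.7 in control sham libraries. The control TAC libraries had the 3 lowest sums of these markers, and the part of this in the fall of the fatty acid genes was not tested. Of 10 fibroblast markers 3 rose and 1 fell with TAC in controls, and 5 were lower in knockouts after TAC. Mesothelial markers fell for 5 of 8 with TAC in controls and were higher for 2 in knockouts after TAC, and erythroid markers fell for 3 of 6 and were higher for 2. Endothelial markers fell for 2 of 12 with TAC in controls, Fabp4 and Gpihbp1, both also counted above. The median change of the 12 was −0.44, with 0 above 0. By limma-trend 6 had an unadjusted p under 0.05 (edgeR called 4, DESeq2 6 and voom 3). The limma-trend calls of Fabp4 and Gpihbp1 were both lost without control sham replicate 3, which had the highest endothelial sum of all libraries, 38191. Control sham replicates 1 and 2 had sums of 26546 and 27707, and control TAC libraries 21005 to 24438. Between genotypes after TAC, limma-trend called 0 of 12 endothelial markers, with 2 at an unadjusted p under 0.05 (edgeR called 0, DESeq2 0 and voom 3). Of 10 macrophage markers limma-trend called 0 in both comparisons, with 1 at an unadjusted p under 0.05 for TAC in controls (edgeR called 0, DESeq2 1 and voom 0) and 1 between genotypes after TAC (edgeR called 0, DESeq2 1 and voom 1). Of the 6 adipocyte markers tested, Fabp4, which endothelium also expresses, and Lipe fell with TAC in controls. The sum of all 12 adipocyte markers, mostly Fabp4, was 7952 to 10299.6 in knockout TAC libraries, 7202 to 9872 in knockout sham libraries, 5809 to 8042 in control TAC libraries and 8337 to 10967 in control sham libraries. Ucp1 was at 0 in every library. Adipoq (65.4), Plin1 (39.9), Cfd (263), Retn, Cidec and Pck1 all had their highest value in knockout TAC replicate 2, and at most 33.5 (Cfd) in any other library. The part of these lists in the results was not tested.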

How the data were processed

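The 12 libraries were made from poly(A) RNA of the ventricle apex. Per the labels' protocols, RNA came from a TRIzol extraction and the kit was a stranded one for mRNA. The submitters' processing notes name STAR, SAMtools, featureCounts and GRCm38.p6. For versions, annotation, strand setting and normalisation tool, nothing is given in the sources used here. The authors deposited signal values, which are whole reads per gene divided by 1 size factor per library: 100.0% of values were whole multiples of 1 read within 0.01. Every column matched 1 sample. Of 56350 Ensembl IDs, 55480 matched GENCODE M21, which gave symbols, lengths and GC content.

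The filter kept genes with 10 or more in 3 or more libraries. They were tested with limma-trend (limma 3.58.1, R 4.3.3, robust moderation) on log2(value + 1), with 4 group means, 5 contrasts and Benjamini-Hochberg adjustment over 13916 genes within each contrast. Values in every library are given for members that passed in a contrast and for at least 2 members of each step with the smallest p in controls; up to 4 genes of each other list, by p in controls, and the 5 genes most similar in profile are named. The members and lists were chosen with earlier results of these data known. Some genes of the other lists are not reported here. Ratios within a library were compared by two-sided exact permutation tests. Alternatives were edgeR 4.0.16 quasi-likelihood tests and DESeq2 1.42.0 on the recovered reads, voom with quality weights, other scalings, filters and pseudocounts (0.5 and 5), only the libraries compared, the replicate number as a block, removal of a length and GC trend (loess, span 0.5), and leaving out each library. Shared sequence was counted as 50-base words of a member's transcripts found in other genes. For a count of 0 the limit was taken as 3 counts; such limits cover counting error only. Python 3.11.15 with scipy 1.17.1, pandas 2.3.3 and numpy 2.4.6 made the tables, and matplotlib 3.10.9 the plots.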

Additional observations from a re-analysis of the deposited data

How the results depend on the processing

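The count of members that fell with TAC in controls was 14, and 11 to 20 under the alternatives and with each library left out. Without control sham replicate 3 it was 20, with Acadl, Acadm, Hadha, Hadh, Echs1, Eci2 and Etfa added and Slc27a1 lost. Over all genes, 3006 were called in either direction in the fit reported and 2402 without control sham replicate 3. The other fits called 1420 to 3656. For knockout against control after TAC, 13 members passed in the fit reported; voom with quality weights gave 24, and leaving out a library gave 3 to 23. Without knockout TAC replicate 1 or 2 only Acaa2, Ech1 and Eci1 passed. The count was 7 without control TAC replicate 1, 5 without control TAC replicate 2 and 23 without control sham replicate 3, of which 22 were higher and 1, Acacb, lower. The calls over all genes moved too, from 1145 in the fit reported to 3812 with voom. They were 214 without knockout TAC replicate 1 and 202 without knockout TAC replicate 2. Without control TAC replicate 1 they were 348, without control TAC replicate 2 275 and without control sham replicate 3 2143. Besides Acacb, the calls gained without control sham replicate 3 were those of Acadl, Acadm, Acot2, Cpt2, Crat, Echs1, Etfa, Fabp3 and Hadha. For TAC in knockouts voom gave 6 members in place of 0, and 843 of all genes in place of 1. For the difference of the TAC effects, DESeq2 gave 6, no filter on low values 3 and voom 11, in place of 0, and leaving out a library gave 0 to 5. Calls over all genes were 43 in the fit reported, 480 with DESeq2, 124 with no filter and 1573 with voom. They were 8 to 755 when a library was left out. In this contrast Acaa2 and Ech1 passed without control sham replicate 3. With the replicate number as a block, the counts were 14, 0, 13, 0 and 0 for TAC in controls, TAC in knockouts, knockout against control after TAC, the same after sham, and the difference of the TAC effects. Libraries with the same number in 2 groups had correlations of −0.07 to 0.25 between their deviations from the group means, so the numbers were not taken to pair the samples. Pseudocounts, TMM and upper-quartile scaling and edgeR kept each count of calls within 1.5 times. The cause of these changes was not tested. With 3 libraries a group, and low members such as Acad10 and Acot1 resting on few reads, small changes cannot be detected.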

Other observations

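Several genes outside the 37 members that handle fatty acids differed between knockouts and controls after TAC. They were picked by their p with TAC in controls, which uses the same control TAC libraries, so neither result is support for the other. Of 11 uptake genes 1 was higher and 1 lower. Higher were 2 of 13 synthetases and thioesterases, 3 of 15 acyl-CoA breakdown, 2 of 14 triglyceride storage and 1 of 12 synthesis genes. For peroxisomal and ketone body genes, 0 of 13 and 0 of 7 passed. Over all genes, 4.1% were higher and 4.13% lower. Lrp1, the lipoprotein remnant receptor, averaged 1691 ± 354 in knockout TAC libraries and 4831 ± 653 in control TAC libraries (SD, n = 3 each), a log2 difference of −1.52 ± 0.16, adjusted p = 9.3e-05 by limma-trend. Dbi, the acyl-CoA binding protein, averaged 1619 ± 171 in knockout TAC libraries and 978 ± 55.5 in control TAC libraries (0.72 ± 0.14, adjusted p = 0.00889). The thioesterase Acot7 averaged 993 ± 75.3 in knockout TAC libraries and 609 ± 21.9 in control TAC libraries (0.70 ± 0.12, adjusted p = 0.00485). Plin5 of lipid droplets averaged 1649 ± 160.4 in knockout TAC libraries and 1183 ± 134 in control TAC libraries (0.48 ± 0.13, adjusted p = 0.0336). Mcee, methylmalonyl-CoA epimerase of propionyl-CoA use, averaged 1074 ± 201 in knockout TAC libraries and 641 ± 72.4 in control TAC libraries (0.73 ± 0.15, adjusted p = 0.00903). The call of Dbi was lost without knockout TAC replicate 1 or 2 (adjusted p up to 0.0574), and that of Mcee without either of these or without control TAC replicate 1 (up to 0.0645). That of Plin5 was lost in 6 of 12 fits that left out a library (up to 0.162) and after removal of the length and GC trend (0.296). For Bdh1 the difference after TAC did not pass (−0.49 ± 0.22, adjusted p = 0.192). Bdh1 averaged 2400.2 ± 31.3 in knockout TAC libraries, 1272 ± 216 in knockout sham libraries, 3375 ± 316 in control TAC libraries and 1831 ± 680.4 in control sham libraries. Its TAC change was 0.93 ± 0.22, adjusted p = 0.432 in knockouts and 0.96 ± 0.22, adjusted p = 0.00867 in controls. With TAC in knockouts, edgeR called 0 of the 7 ketone body genes, DESeq2 1 and voom 1. In the difference of the TAC effects, limma-trend called 0 of the 7, and 0 had an unadjusted p under 0.05.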
